A study of Mus musculus with 40 samples.

Results

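Gonadal white adipose tissue of daughters was profiled in 10 libraries of the 40 in the series, 5 from daughters of nicotine-exposed male mice and 5 from daughters of control males. The members are the libraries whose labels give female sex and gonadal white adipose tissue, and all 10 entered the comparison. All animals were C57BL/6J, an inbred mouse strain, and the exposed animals were the fathers, so the daughters of both groups differ by paternal treatment. The columns of the deposited table name the controls DMSO, the solvent dimethyl sulfoxide, whereas the labels call them control. The labels give no age, nicotine dose or route and do not say which daughters share a father or litter. The p-values therefore reflect the scatter among these libraries, part of which may be technical.

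Gonadal fat is a visceral depot wrapped around the uterine horns in females. Its adipocytes store triglyceride, release it by lipolysis and can burn part of it in mitochondria, while progenitors, vessels, mesothelium and resident macrophages fill the space between them. Resident macrophages clear dying adipocytes and lipid through their lysosomes and present antigen on major histocompatibility complex class II. RNA was read by 3′-tag sequencing, which counts reads near the 3′ end of polyadenylated transcripts. Levels below are normalized counts, that is, reads divided by a size factor for each library, and a change is the nicotine mean minus the control mean on the log2(normalized count + 1) scale. A gene is said to have risen or fallen where limma's adjusted p was below 0.05.

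Libraries held 1783822 to 2239073 reads. Several carried RNA of neighbouring tissues, and this did not follow the groups evenly. The summed level of 35 skeletal muscle genes was 53138 normalized counts in control 2, 3979 in nicotine 2, 2580 in control 1 and 2137 in nicotine 5, against 144 to 316 in the other 6 libraries. The summed level of 35 uterus genes was 8888 in control 4 and 5664 in control 5, against 1395 to 2615 elsewhere, and Sprr2f, an epithelial gene of the uterus, reached 3789 and 1404 in those libraries and at most 107.8 in the others. Upk3a, a urothelial membrane protein, stood at 369 in control 2 and 449 in nicotine 5. The summed level of 30 smooth muscle and pericyte genes was 27085 in control 2, 25088 in nicotine 1 and 15877 in nicotine 5. Elsewhere it was 7716 to 11354, and the source of that RNA was not tested. None of the 30 skeletal muscle genes tested passed the test, and their median change was -0.61. Of 24 uterus genes 4 fell and 0 rose (16.7%, against 12.8% of all tested genes lower). The uterus median was -1.13, against -0.03 for all tested genes.

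**Figure D1:**
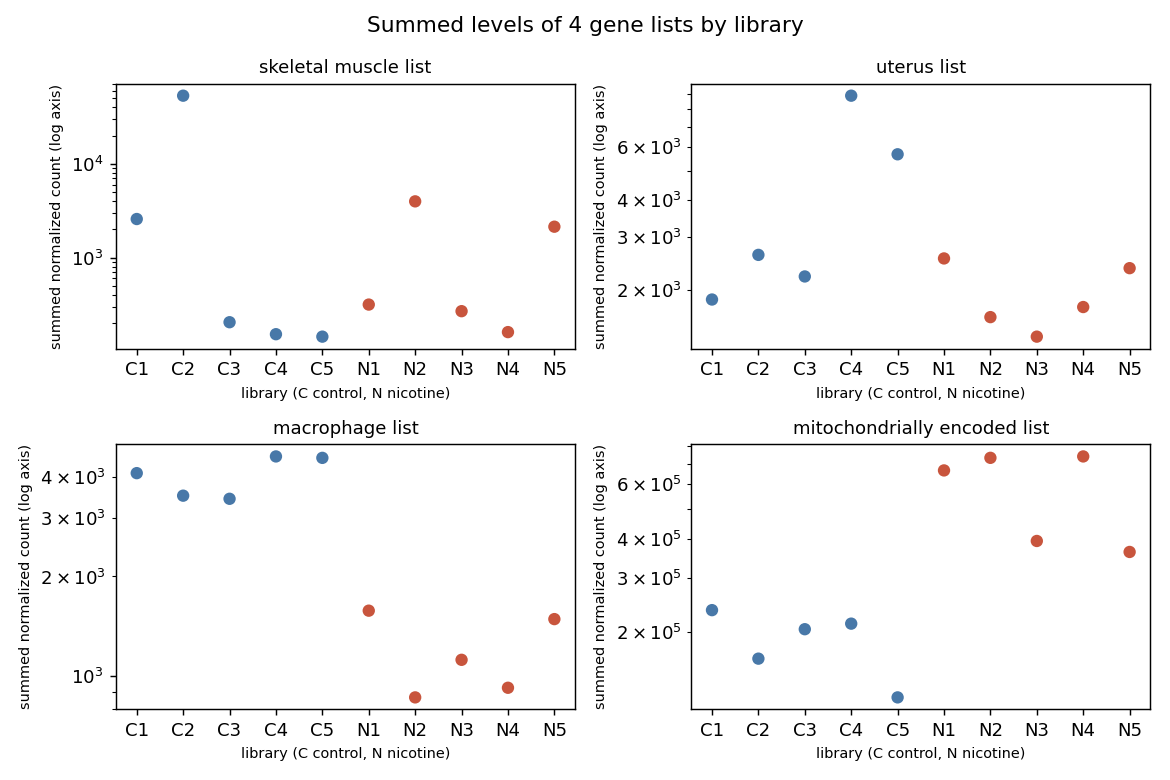
Summed normalized counts of 4 gene lists (y axis, log scale) in each library (x axis; C1 to C5 control in blue, N1 to N5 nicotine in red). Skeletal muscle genes peak in C2 and uterus genes in C4 and C5, whereas macrophage and mitochondrially encoded genes separate the groups without overlap. Of all 62 lists summed, 10 did not overlap.

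Mitochondrial ribosomal RNA also separated the groups. The 12S and 16S transcripts mt-Rnr1 and mt-Rnr2 together took 8.23% to 13.0% of reads in the controls and 19.3% to 32.5% in the nicotine libraries. mt-Rnr2 stood at 143260, 98995, 121740, 123490 and 78102 in controls 1 to 5 and at 472870, 489560, 253730, 522740 and 246500 in nicotine 1 to 5, a rise of 1.77 ± 0.43 (SE, limma adjusted p = 0.0095). Every nicotine library lay above every control library. mt-Rnr1 rose by 1.28 ± 0.38, a call lost without control 2, control 5, nicotine 2 or nicotine 4 (adjusted p of 0.058, 0.069, 0.061 and 0.053). Without controls 2, 4 and 5 neither rRNA passed, and quantile normalization, which holds their top ranks fixed, sets both changes to 0. Change also went with transcript length: in the shortest quintile of annotated transcripts 132 genes rose and 457 fell, and in the longest 388 rose and 131 fell. The median change was -0.30 in the shortest quintile and 0.16 in the longest. Median change was 0.14 in the quintile of lowest GC content and -0.27 in the highest. These measures differ between the same libraries as the treatment, and their part in the changes below was tested only through the fits that remove the length and GC trends or change the scaling.

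Against that background, the response was broad. Of 10532 genes with a mean of 10 or more normalized counts, 2656 (25.2%) passed the test, 1303 of them higher (12.4%) and 1353 lower (12.8%) after paternal nicotine. At least 2-fold changes were seen in 494 of the risen and 777 of the fallen genes, and at least 4-fold in 31 and 136. Groups did not overlap in 1756 genes (16.7%). These shares are the background for the counts of list members below. With counts divided by total reads instead of size factors, the median of all genes moved to -0.36 and the calls became 481 higher and 2644 lower (29.7% of genes). With total reads counted without mt-Rnr1 and mt-Rnr2, the median was -0.079 and the calls were 1104 higher and 1468 lower. With length and GC trends removed there were 2269 calls (22.5%), 1919 of them shared with the 2656. With uterus and smooth muscle totals as covariates there were 1857 (17.6%), 1580 of them shared. The authors' deposited table calls 2903 genes, 2468 of them shared with these calls and all of the shared ones in the same direction. Limits apply to all counts below: without control libraries 2, 4 and 5 the calls dropped to 954 (9.28%), and without controls 1, 2 and 4 and nicotine 2 and 5, to 40 (0.388%). Those 5 libraries exceeded a set multiple of the median of an other-tissue list, and 2 control and 3 nicotine libraries were left. Control 5, with its uterus total of 5664, is one of the 2 controls left, so that fit is not free of other-tissue RNA.

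Resident macrophage genes fell. Of 19 macrophage genes tested, 16 fell and none rose, with a median change of -1.77 against -0.03 for all tested genes. Their summed level was 3427 to 4598 in the controls and 865 to 1578 in the nicotine libraries. Cd209f, a C-type lectin, fell from 205, 157, 235, 332 and 233 to 33.2, 18.1, 37.3, 15.6 and 35.6, a change of -3.05 ± 0.27 (SE, limma adjusted p = 2.5e-05). C1qc, a chain of the complement component C1q, fell from 132, 114, 116, 219 and 155 to 36.7, 12.1, 22.7, 16.8 and 27.2. Folr2, a folate receptor of resident macrophages, stood at 37.2 to 86.1 in the controls and 1.20 to 9.17 in the nicotine libraries. Pf4, a chemokine carried by platelets and macrophages, and F13a1, the A chain of coagulation factor XIII, fell by 2.52 and 2.31. None of these genes overlapped between groups. Outside the list, Ms4a4a, a membrane protein of macrophages, had the largest fall of any gene named here, from 59.6 to 174 in the controls to 1.88 to 7.27, a change of -4.45 ± 0.37. Fcna, ficolin A, fell by 3.89. Without control libraries 2, 4 and 5, 12 of the 19 macrophage genes still fell, and without the 5 libraries named above 4 did, with medians of -1.70 and -1.86. In bulk tissue, fewer cells of a type and less RNA per cell cannot be told apart.

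To show the DNA next to these genes, promoters were searched for the PU.1 box, GAGGAAGT on either strand, the site of a factor that myeloid genes need. RefSeq promoters (250 bases before to 50 after the start) were matched for 11 of the 16 fallen macrophage genes, and C1qc, F13a1 and Pf4 held the box, against 3.58% of the 7944 tested genes matched. The upstream 250 bases of C1qc (GRCm38.p6, chr4:136892915-136893164, minus strand) and Pf4 (chr5:90772185-90772434, plus strand) follow, 5′ to 3′, with the box, here on the other strand, in capitals. A match is a run of letters and not evidence of binding.
C1qc: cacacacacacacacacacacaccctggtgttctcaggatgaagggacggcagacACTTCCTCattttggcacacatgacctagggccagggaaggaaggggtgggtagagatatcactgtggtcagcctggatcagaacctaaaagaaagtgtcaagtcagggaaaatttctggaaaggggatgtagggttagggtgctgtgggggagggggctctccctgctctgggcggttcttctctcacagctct
Pf4: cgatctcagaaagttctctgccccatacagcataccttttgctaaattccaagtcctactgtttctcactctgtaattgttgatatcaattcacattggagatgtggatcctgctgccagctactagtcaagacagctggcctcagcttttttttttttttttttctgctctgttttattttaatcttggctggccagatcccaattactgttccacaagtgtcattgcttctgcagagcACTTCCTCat

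Class II and chemokine genes fell as well, in counts that shrank in the reduced fits. Of 8 class II antigen presentation genes tested 7 fell and none rose. Without controls 2, 4 and 5, 2 of them fell, and with the uterus covariates 5. H2-Eb1, a class II beta chain, fell from 157, 122, 185, 225 and 122 to 26.4, 21.7, 32.7, 31.2 and 57.2, a change of -2.26 ± 0.25 (SE, limma adjusted p = 9.5e-05). Ctss, the cathepsin that trims the invariant chain, fell by 1.68, a call lost without controls 2, 4 and 5. Of 20 chemokines and receptors 12 fell and 1 rose, the interferon-induced Cxcl9 (0.90 ± 0.26, adjusted p of 0.055 and 0.062 without nicotine 2 or nicotine 4). Without controls 2, 4 and 5, 3 of 14 fell, and with the uterus covariates 5 of 20, where the median went from -1.67 to -0.74. Ccl6 stood at 441 to 1462 in the controls and 31.2 to 146 in the nicotine libraries, and Ccl24 and Ccl9 fell by 2.61 and 2.28. Of 6 monocyte and neutrophil genes 4 fell, Retnlg, a resistin-like neutrophil product, among them, and 1 rose, G0s2. The summed level of that list overlapped between groups. Of 11 markers of lipid-associated macrophages 2 fell and 0 rose, a share near the 12.8% of all genes, with a median of -0.23. That list also holds Lpl, Cd36, Fabp5 and Plin2, which stand on the adipocyte or lipid droplet lists below. Its summed level was 19529 to 37400 in the controls, against 3427 to 4598 for the macrophage list, so it does not single out macrophages. Gpnmb, changed by -1.80 ± 0.53, with an adjusted p of 0.051, 0.061 and 0.061 without control 4, control 5 or nicotine 2. The summed levels of class II genes and of chemokines did not overlap between groups, nor did those of the macrophage list. Of all 62 lists summed, 10 did not overlap.

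Lysosomal genes fell in 15 of 36 cases and rose in 1, the cholesterol exporter Npc1. Without controls 2, 4 and 5, 8 of the 36 fell, with the uterus covariates 10, and without the 5 libraries named above 1. Psap, the precursor of the saposins that help lysosomal enzymes digest sphingolipids, dropped from 7393, 6886, 7722, 6626 and 4226 to 668, 558, 926, 305 and 840. Its change was -3.38 ± 0.28 (SE, limma adjusted p = 2.3e-05), and the groups did not overlap. Laptm5, a lysosomal membrane protein of blood cells, fell by 1.86, Hexa, a hexosaminidase chain, by 1.44, and Ctsc, a cathepsin, by 1.17. Map1lc3b, which coats autophagosomes, fell from 1015 to 1386 to 344 to 443, and its relative Map1lc3a fell by 1.14. Of 26 autophagy genes 6 fell and 1 rose (26.9% called, against 25.2% of all tested genes called and 12.8% lower). The median change of that list was 0.02.

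**Figure D2:**
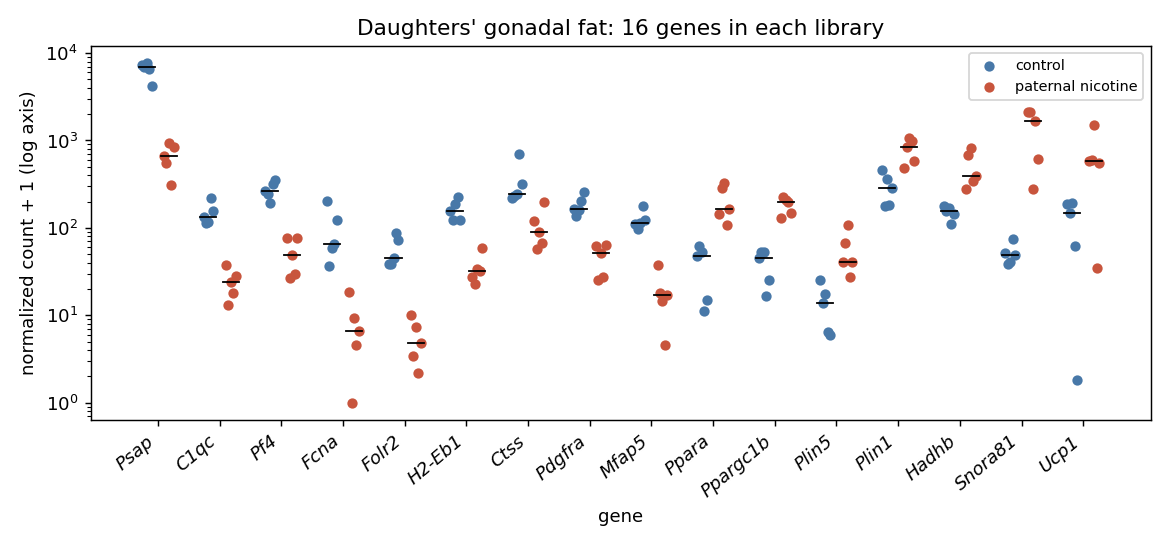
Normalized count plus 1 (y axis, log scale) of 16 genes (x axis) in the 5 control (blue) and 5 nicotine (red) libraries, with each group's median as a bar. The 9 genes on the left fall and the next 6 rise without overlap, while Ucp1 overlaps between groups.

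Stromal and matrix genes fell. Of 25 progenitor and fibroblast genes 14 fell and none rose, and of 49 matrix and remodelling genes 24 fell and 1 rose, the basement membrane proteoglycan Hspg2. Pdgfra, the receptor that marks adipose progenitors, fell from 164, 136, 159, 204 and 258 to 60.8, 24.1, 50.9, 26.4 and 62.8, a change of -2.08 ± 0.28 (SE, limma adjusted p = 0.0003). Mfap5, a microfibril protein, stood at 97.1 to 175 in the controls and 3.61 to 36.7 in the nicotine libraries. Cd248, a pericyte and fibroblast membrane protein, Mmp3, a matrix protease, and Adamts2, which trims procollagen, fell by 2.35, 3.03 and 1.90. Clec3b, which encodes tetranectin, a secreted plasminogen-binding protein, fell from between 2055 and 4374 to between 196 and 500. Collagens fell in 7 of 21 cases and rose in 0 (33.3%, against 12.8% of all tested genes lower), with Col6a2 at -1.63 ± 0.24. Among the insulin and growth factor genes described below, 3 binding proteins fell, Igfbp4 by 1.68, Igfbp7 by 1.40 and Igfbp6 by 2.13, the last call lost without controls 2, 4 and 5. Without control libraries 2, 4 and 5, 7 of 24 progenitor genes and 9 of 49 matrix genes fell. Without the 5 libraries named above, 0 of 24 and 1 of 49 fell. The summed progenitor level overlapped between groups, at 10021 to 14419 in the controls and 8994 to 11835 in the nicotine libraries. The summed matrix and collagen levels overlapped as well.

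Other cell type lists gave these counts. Of 19 mesothelial genes 7 fell and none rose, Upk3b and Slpi among them, but none fell without control libraries 2, 4 and 5. Of 23 endothelial genes 3 rose and 5 fell (34.8% called), and with total-read scaling 1 rose and 12 fell. Ptprb, the endothelial receptor phosphatase, rose by 1.25 ± 0.25, and Prox1, the lymphatic regulator, fell by 2.54 ± 0.46, both calls lost without controls 2, 4 and 5. Of 29 smooth muscle genes 2 rose and 1 fell (10.3% called, against 25.2% of all tested genes). The uterus genes that fell were Emx2, Hoxa11, Mmp11 and S100g, and S100g stood at 183 in control 4 against 3.92 to 18.2 in the other controls. The call of S100g was lost without control 5 (adjusted p = 0.066). The call of Hoxa11 was lost without control 3, control 5, nicotine 2 or nicotine 4 (0.054 to 0.063), and that of Mmp11 without any of these or control 4 (0.058 to 0.075). Of 8 oviduct genes 3 fell and none rose, with a median of -1.39, and of 6 red blood cell genes 2 fell and none rose, with a median of -1.02. The summed level of 12 mast and dendritic cell genes was 72.5 to 191 in the controls and 40.9 to 48.2 in the nicotine libraries.

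Genes of mitochondrial fuel burning rose. Of 30 fatty acid oxidation and ketone body genes 18 rose and 1 fell, with a median change of 0.94, and the summed level was 4657 to 6613 in the controls and 8310 to 13838 in the nicotine libraries. Hadhb, the beta subunit of the trifunctional protein, rose from 175, 153, 169, 109 and 142 to 279, 673, 813, 346 and 395, a change of 1.64 ± 0.27 (SE, limma adjusted p = 0.00091). Eci1, an enoyl-CoA isomerase, and Etfa, which hands electrons to the chain, rose by 1.38 and 1.05. The gene that fell was Cpt1a, the liver-type carnitine palmitoyltransferase, at -1.01 ± 0.29. Its groups overlapped, and its adjusted p was 0.054 and 0.055 without nicotine 2 or nicotine 4. Of 27 genes of the tricarboxylic acid cycle and pyruvate dehydrogenase 15 rose and none fell. With total-read scaling 5 of the 27 cycle genes and 14 of the 30 oxidation genes rose. Idh3a, a subunit of isocitrate dehydrogenase, stood at 65.0 to 141 in the controls and 280 to 690 in the nicotine libraries, and Ogdh, Sucla2 and Mdh2 rose by 1.43, 1.23 and 1.10. Without control libraries 2, 4 and 5, 9 of 30 oxidation genes and 4 of 27 cycle genes rose. With uterus and smooth muscle totals as covariates these counts were 13 and 5, and without the 5 libraries named above none of either list passed, with medians of 0.91 and 0.86.

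Ppara, the fatty acid-sensing nuclear receptor, rose from 46.1, 60.5, 52.4, 10.1 and 14.1 to 143, 281, 327, 106 and 161, a change of 2.63 ± 0.47 (SE, limma adjusted p = 0.0015). Ppargc1b, a coactivator of mitochondrial genes, stood at 15.6 to 51.5 in the controls and 127 to 227 in the nicotine libraries. Of 17 genes of the thermogenic list 9 rose and none fell, Pank1, which starts coenzyme A synthesis, by 2.35 and Kcnk3, a potassium channel of thermogenic fat, by 2.28. Without controls 2, 4 and 5, 5 of the 17 rose, with the uterus covariates 7, and without the 5 libraries named above 2. Ucp1, the uncoupling protein that defines thermogenic fat, stood at 185, 148, 191, 61.4 and 0.83 in the controls and 578, 593, 1510, 33.7 and 553 in the nicotine libraries. Its groups overlapped and it did not pass (2.80 ± 1.18, limma adjusted p = 0.095), though without nicotine 4, the low library, it did (3.68, adjusted p = 0.034). Brown fat genes rose in 3 of 10 cases (30%, against 12.4% of all tested genes higher). The sum of that list was lowest in control 5 and in nicotine 4. The ERR response element, TCAAGGTCA on either strand, was also searched for in the matched promoters. It lay in 0 of 14 risen oxidation genes, 0 of 13 risen cycle genes and 0 of 5 risen thermogenic genes. Among tested genes matched it lay in 0.239%.

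The respiratory chain did not move as one. Of 83 nuclear-encoded subunits 10 rose and 17 fell (32.5% called, against 25.2% of all tested genes called and 12.4% higher). Ndufa10, a subunit of complex I, rose by 1.80 ± 0.26, whereas Ndufb2 and Cox8a, small subunits of complexes I and IV, fell by 2.09 and 2.10. With length and GC trends removed, 17 of 67 rose and 5 fell, and with total-read scaling 4 of 83 rose and 33 fell. Cytosolic ribosomal proteins fell in 40 of 84 cases and rose in 1, Rpl7l1, with a median of -0.61. Rpl37a fell from 1356 to 2300 in the controls to 275 to 553, and Rpl41, Rpl28 and Rps27a fell by 1.73, 1.59 and 1.74. With length and GC trends removed 25 of 84 fell, with the uterus covariates 20 fell and 2 rose, and without controls 2, 4 and 5, 13 of 83 fell. These messages are short, and many ribosomal protein genes have processed pseudogenes that could share reads. Mitochondrial ribosomal proteins went the other way, 17 of 73 rising and 7 falling (32.9% called). With total-read scaling, however, 6 rose and 15 fell. Of 46 proteasome subunits 13 rose and 3 fell (34.8% called), and with total-read scaling 8 rose and 8 fell. Psma4 and Psmd1 rose by 1.12 and 1.05.

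Fat storage genes rose in part. Of 26 fatty acid and triglyceride synthesis genes 10 rose and none fell, with a median change near 1 on the log2 scale. With total-read scaling 4 rose and 2 fell, and with the uterus covariates 2 rose, with a median of 0.44. Pnpla3, a lipid droplet acyl hydrolase, rose from 29.3 to 71.6 in the controls to 76.8 to 307, and Mlxipl, the glucose-sensing factor ChREBP, and Gpam, which starts glycerolipid synthesis, rose by 1.74 and 1.10 with overlapping groups. Fasn, fatty acid synthase, stood at 2997, 2571, 6635, 1356 and 2647 in the controls and 2214, 8815, 15878, 11051 and 5743 in the nicotine libraries. It did not pass (1.35 ± 0.48, limma adjusted p = 0.053), nor did Acaca (1.23 ± 0.53) or Scd1 (0.72 ± 0.34). Without nicotine 1, the lowest nicotine library for all of them, Fasn, Acaca and Scd1 passed (adjusted p of 0.0056, 0.023 and 0.027), and Fasn also did without control 3 (0.026). Without control libraries 2, 4 and 5 no gene of this list rose and 1 fell. Of 22 cholesterol genes 7 rose and 1 fell (36.4% called, against 25.2% of all tested genes). Sc5d, a desaturase of the pathway, rose by 1.31, and Srebf2, its main activator, changed by -0.95 ± 0.33, a call lost without any one of controls 1 to 5, nicotine 2 or nicotine 4 (adjusted p of 0.053 to 0.12).

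On the lipid droplet, Plin1, the coat protein that gates lipolysis, rose from 458, 178, 362, 182 and 282 to 482, 842, 1053, 987 and 578, a change of 1.46 ± 0.29 (SE, limma adjusted p = 0.0027). Plin5, the droplet protein that binds mitochondria, rose by 2.09, and Mgll, monoacylglycerol lipase, by 1.31. G0s2, an inhibitor of the lipase ATGL, rose by 0.67 ± 0.20, a call lost without control 2, control 3, nicotine 2, nicotine 3 or nicotine 4, where the adjusted p reached 0.055. Of the 24 lipolysis and droplet genes 5 rose and 1 fell (25% called, against 25.2% of all tested genes). With total-read scaling 4 rose and 4 fell. Without controls 2, 4 and 5 none of them passed. Adrb1, a beta-adrenergic receptor, rose by 1.43. The lipases themselves did not pass: Pnpla2, which encodes ATGL, changed by -0.19 ± 0.30 and Lipe, hormone-sensitive lipase, by 0.16 ± 0.29. Plin2 changed by 0.67 ± 0.29 and passed without nicotine 1 (0.88, adjusted p = 0.028).

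Of 36 adipocyte identity genes 8 rose and none fell (22.2% called, against 25.2% of all tested genes called and 12.4% higher). With total-read scaling, however, 4 rose and 6 fell, and without controls 2, 4 and 5, 1 rose and 1 fell. Their summed level overlapped between groups. Car3, an abundant carbonic anhydrase of fat, stood at 2577 to 4390 in the controls and 6191 to 11396 in the nicotine libraries, a call lost without controls 2, 4 and 5. Nrg4, an adipocyte-secreted growth factor, and Nampt, which makes the nicotinamide mononucleotide used for NAD, rose by 1.54 and 1.37. Both stand on a list of adipokines and secreted factors, where 2 of 25 genes rose and 6 fell, with a median of -0.39. With total-read scaling 2 of that list rose and 10 fell. The hormones did not pass: adiponectin's Adipoq changed by -0.39 ± 0.27, leptin's Lep by 0.24 ± 0.41, resistin's Retn by -0.08 ± 0.24 and adipsin's Cfd by -0.23 ± 0.36. Pparg, the master regulator of adipocytes, changed by 0.51 ± 0.23, Srebf1 by 0.63 ± 0.32, Lpl by 0.26 ± 0.30, Dgat2 by -0.11 ± 0.46 and Slc2a4, the insulin-responsive glucose transporter, by 0.68 ± 0.39. Pck1 changed by -0.52 ± 0.29 and Angptl4, an inhibitor of lipoprotein lipase, by -0.51 ± 0.21. Pparg passed without nicotine 5 (adjusted p = 0.038), Srebf1 without control 3 (0.048), and Angptl4 without control 2 (0.043) or nicotine 2 (0.047). Adipoq, Pck1 and Angptl4 passed as lower with total-read scaling (-0.73, -0.87 and -0.85). A p above the threshold does not show that these levels were equal.

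Insulin and growth factor signalling was mixed, with 8 of 33 genes higher and 7 lower (5 and 9 with total-read scaling). Akt1, a kinase of that pathway, fell from 63.2 to 89.2 in the controls to 14.4 to 30.0, a change of -1.66 ± 0.22. Gys1, muscle-type glycogen synthase, rose by 1.72. Of 23 genes of branched-chain amino acid breakdown 5 rose and none fell (21.7% called, against 25.2% of all tested genes called and 12.4% higher). Bckdha and Dbt rose by 1.38 and 1.20.

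**Figure D3:**
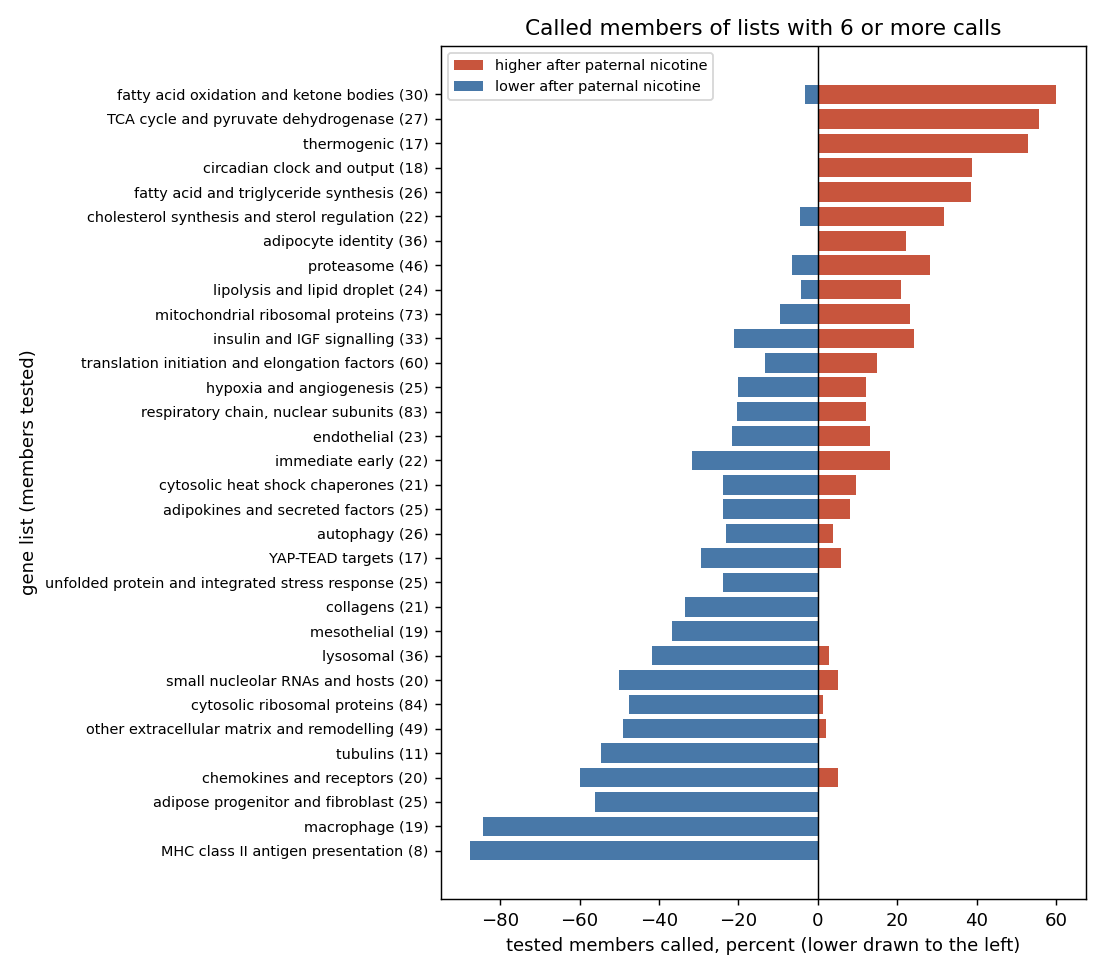
Share of tested members called (x axis, percent) for the 32 lists with 6 or more calls, higher after paternal nicotine to the right and lower to the left; the number tested stands in brackets on the y axis. Fuel-burning lists lie on the right, and macrophage, class II and stromal lists on the left.

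Of 18 clock genes 7 rose and none fell, 3 rising without controls 2, 4 and 5 and 2 with total-read scaling. Per2, a repressor of the clock, rose from 19.6, 44.0, 27.1, 19.2 and 22.4 to 119, 71.2, 60.0, 56.5 and 75.9, a change of 1.51 ± 0.26 (SE, limma adjusted p = 0.0013). Bhlhe41, another repressor, rose by 1.17, Noct, a rhythmic phosphatase, by 1.05, and Per1 by 0.92 with overlapping groups. Dbp, an output gene, changed by 0.11 ± 0.24 and did not pass. In the daughters' liver the median change of the clock list was 0.41. Per2 and Noct rose there by 0.78 and 1.98 (limma adjusted p = 0.016 and 0.00055), and Per1 changed by 0.74 without passing (0.098). The labels give no time of tissue collection. The E-box, CACGTG, where clock activators bind, lay in the promoters of 3 of the 6 risen clock genes matched, Bhlhe41, Per1 and Tef, and in 11.9% of tested genes matched. Tef, an output factor, rose by 0.65 ± 0.21, a call lost without control 4, control 5, nicotine 1, nicotine 3 or nicotine 4 (adjusted p of 0.062 to 0.082). The upstream bases of Bhlhe41 (chr6:145865421-145865670, minus strand) and Per1 (chr11:69098699-69098948, plus strand) are shown with the E-box in capitals.
Bhlhe41: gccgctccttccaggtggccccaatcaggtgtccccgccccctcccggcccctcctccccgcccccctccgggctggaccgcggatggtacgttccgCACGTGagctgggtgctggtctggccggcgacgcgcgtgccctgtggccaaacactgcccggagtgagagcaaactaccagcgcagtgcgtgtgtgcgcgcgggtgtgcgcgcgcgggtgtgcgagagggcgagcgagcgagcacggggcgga
Per1: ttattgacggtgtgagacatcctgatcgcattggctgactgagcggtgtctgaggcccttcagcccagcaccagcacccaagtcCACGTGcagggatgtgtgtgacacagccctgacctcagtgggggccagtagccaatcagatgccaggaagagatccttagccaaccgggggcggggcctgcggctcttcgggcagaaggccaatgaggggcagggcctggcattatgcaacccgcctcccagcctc

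Stress genes were mixed. Of 25 unfolded protein response genes 6 fell and none rose (24% called, against 25.2% of all tested genes called and 12.8% lower). Pdia4 fell by 0.96 and Hspa5, an abundant endoplasmic reticulum chaperone, by 0.55. The call of Hspa5 was lost when any one library but control 3 or nicotine 3 was left out (adjusted p of 0.053 to 0.096). Of 21 cytosolic chaperones 2 rose, Hsp90aa1 by 0.88 among them, and 5 fell (33.3% called). Of 22 immediate early genes 4 rose and 7 fell (50% called), and with total-read scaling 1 rose and 9 fell. Jund rose from between 19.2 and 30.2 to between 62.7 and 192, whereas Junb fell by 1.65 and Jun by 0.94, both calls lost without controls 2, 4 and 5. Tubulins fell in 6 of 11 cases and rose in 0, with Tubb2b falling from 84.5 to 247 in the controls to 10.9 to 17.8. Efna1, an ephrin ligand, and Ccn2, a matricellular protein, changed by -0.33 ± 0.21 and -1.17 ± 0.80 and did not pass. Ftl1, the ferritin light chain, fell by 1.75 ± 0.23, and reads of its pseudogenes could be counted with it.

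Of 20 small nucleolar RNAs and host transcripts on the list 10 fell and 1 rose. The hosts Snhg3 and Gas5 fell by 2.04 and 1.48. Snora81, a 178-base RNA on chromosome 16 (GENCODE M21, 23110756 to 23110933, plus strand), rose from between 37.6 and 74.2 in the controls to 2121, 2094, 277, 1677 and 605. Its change of 4.40 ± 0.47 (SE, limma adjusted p = 6.3e-05) was the largest rise named. Among the nicotine libraries it was lowest in nicotine 3 and nicotine 5, where the mitochondrial rRNA share was also lowest (19.3% and 20.3%). A link between them was not tested. In the daughters' liver Snora81 changed by -0.75 (limma adjusted p = 0.021). Snora81 lies within Eif4a2 (23107444 to 23114136, same strand), a translation initiation factor gene. Eif4a2 went from 228 to 313 in the controls to 175 to 238, a change of -0.51 ± 0.15 (adjusted p = 0.023). The host's call was lost without control 1, 3 or 4 or nicotine 2 or 5 (0.051 to 0.053). The other largest rises were those of Ccm2l, Syne3, Lrrc39, Zfp526, Agfg2 and Acot11, between 2.15 and 2.41. The call of Acot11 was lost without any one library but control 2, nicotine 1 or nicotine 4 (adjusted p of 0.053 to 0.12). Among the other largest falls, Col6a4, Islr2, Rprm, H19 and Trim63 lay at or below 16.1 normalized counts in every nicotine library. Trim63 and H19 stood at 428 and 235 in control 2, the library with the highest skeletal muscle total. In the other controls they stood at 21.0 to 53.1 and 12.2 to 41.2. Col6a4 stood at 96.2 and 87.8 in controls 4 and 5, those with the highest uterus totals, against 3.66 to 18.3 in the other controls.

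The sons' gonadal fat served as a comparison. It was tested in 9 libraries, 4 control and 5 nicotine. By limma 0 of 11210 genes passed, and 182 had an unadjusted p below 0.05, fewer than the 1 in 20 that chance gives on average. The lack of calls does not show that the sons' fat was unchanged. Mitochondrially encoded genes took 0.454% of reads in the sons' nicotine 4, against 4.21% to 9.58% in their other libraries. The sons' libraries were not left out in turn, so the weight of that library was not tested. In the daughters' liver 301 of 9173 genes (3.28%) passed. The difference between the daughters' and the sons' change was tested directly, and 891 of 10042 genes (8.87%) differed, 446 of them with the higher change in daughters. Of the 19 macrophage genes 13 differed, and the list's median change in sons was 0.10. Of the oxidation genes 5 of 27 differed, and of the thermogenic genes 4 of 14. Other lists differed less. Of fatty acid and triglyceride synthesis genes 1 of 25 differed, with a median change of 0.53 in sons and 1.00 in daughters. Of cholesterol genes 1 of 22 differed, with medians of 0.25 and 0.61. Snora81 changed by 4.40 in daughters and -1.89 in sons, and Ms4a4a by -4.45 and 0.43. Entpd5 and Cpeb3, an endoplasmic reticulum nucleotidase and an RNA-binding protein, rose by 1.96 and 1.63 in daughters and changed by -0.22 and -0.56 in sons. Without nicotine 4, control 4 or nicotine 2 of the daughters the number of genes that differed was 536, 577 or 586.

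**Figure D4:**
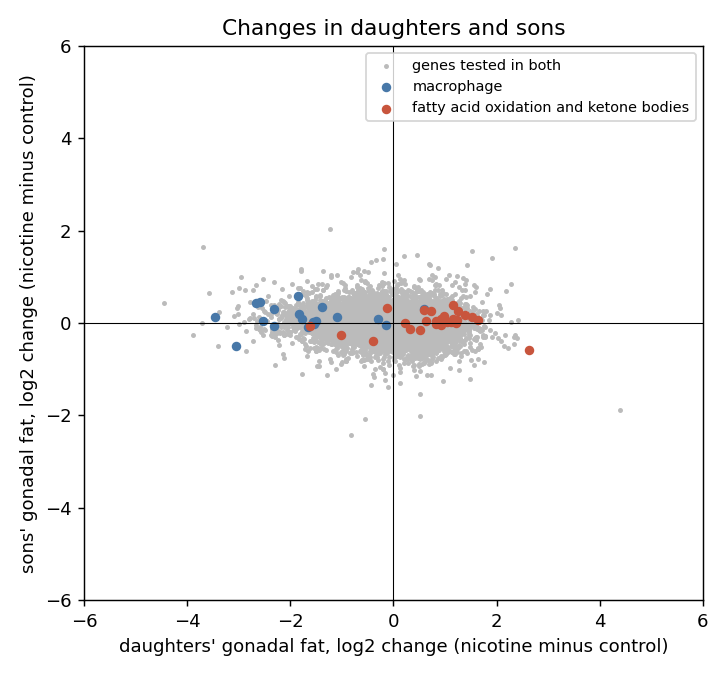
Log2 change after paternal nicotine in daughters' (x axis) and sons' (y axis) gonadal fat for 10042 genes (grey), with macrophage genes in blue and fatty acid oxidation genes in red. Points spread widely along the daughters' axis and narrowly along the sons'.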

How the data were processed

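The deposited tables hold, per gene, a normalized signal for each library and the authors' own base means, log2 fold changes, their standard errors (recorded as a score, a number with no fixed range) and p-values, per the file headers. Tools listed in the submitters' processing notes are DESeq2, STAR and cutadapt, with the mm10 build. How reads were counted, with what strand setting and gene filter, is not given in the sources used here. The deposited signal is counts divided by size factors: 100% of values in the daughters' gonadal fat table came out as whole reads (within 0.1 read), so the reads were recovered for count tests.

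Main values were log2(normalized count + 1) for the 10532 of 17140 genes with a mean of 10 or more, tested with limma 3.58.1 (empirical Bayes with a mean trend) and Benjamini-Hochberg adjustment at 0.05. edgeR 4.0.16 and DESeq2 1.42.0 were run on recovered reads as alternatives (R 4.3.3). The difference from sons was a limma interaction over both tables, which were normalized separately. The fit was tested on simulated data. Libraries with a list sum over 5 times the median and above 200 normalized counts were counted as carrying other tissue. Annotation came from GENCODE M21 and promoters from RefSeq.

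Members and gene lists were chosen with earlier results of these data known. Named genes follow a rule: the 12 largest rises and falls (mean of 20 or more), up to 4 called members of each list by smallest p, a fixed set, and the 6 smallest interaction p-values. Part of the list members it chose are named. Tef, Eif4a2, Npc1, Hspg2, Rpl7l1 and Srebf2 were picked out after their values were seen.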

Additional observations from a re-analysis of the deposited data

Results flagged for a closer look

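Of 342 groups of 5 libraries examined for an outlying library, 36 held one whose gap to the next was above Dixon's critical value, where chance gives about 1 in 20. Control 2 stood apart in the skeletal muscle total (53138 normalized counts against 144 to 2580 in the other controls), the kidney and bladder total (783), Upk3a (369), Trim63 (428), H19 (235) and Bhlhe41 (35.7). Control 4 stood apart in the chemokine total (3726 against 1716 to 2003), Ctss (693), Ccl9 (209), Retnlg (155), S100g (183), Igfbp7 (1510) and Slpi (36.6). Control 1 was high in Ms4a4a (174), Hba-a1 (666), Pck1 (15887) and Cfd (66933 against 17909 to 27300). Control 3 was high in Cyp51 (91.7), Dgat2 (1826) and Srebf1 (82.1). Control 5 was high in Agfg2 (41.4) and low in Islr2 (17.4).

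Among the nicotine libraries, nicotine 1 was high in Col6a4 (4.59), S100g (1.15, the others at 0), Rprm (12.6), Igfbp6 (140), Emx2 (45.9), Eif4a2 (238), Sprr2f (107.8) and the mast and dendritic cell total (48.2). Nicotine 3 was high in Acot11 (229) and Ms4a4a (7.27), and nicotine 4 in Zfp526 (67.3). Nicotine 5 was high in Upk3a (449), the kidney and bladder total (696) and the oviduct total (421).

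The change after paternal nicotine differed between daughters and sons in 891 genes by limma's interaction test. The daughters' change minus the sons' was 6.29 for Snora81 and -4.88 for Ms4a4a. It was -2.43 for Ftl1 and -2.17 for Tubb2a, and 2.20 for Cpeb3 and 2.19 for Entpd5.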

How the results depend on the processing

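Of 2656 genes called, the count was 1843 to 2925 under other pseudocounts, filters, weights, quantile normalization, edgeR, DESeq2, muscle or uterus covariates and removal of length and GC trends, and 3125 with total-read scaling. It was 954 without control libraries 2, 4 and 5 and 40 without controls 1, 2 and 4 and nicotine 2 and 5, where 2 controls remained, control 5 with a high uterus total among them. With total reads counted without mt-Rnr1 and mt-Rnr2 it was 2572. The fits without controls 2, 4 and 5 and with both total-read scalings were chosen after seeing the data. Leaving out 1 library at a time gave 1954 to 2768. For the difference from sons, with only the daughters' libraries left out in turn, it gave 536 to 958. Of 134 called genes named, 120 stayed called whichever library was left out, and 87 of 130 stayed called without controls 2, 4 and 5, 19 of 131 without the 5 libraries and 114 of 134 with the uterus covariates. Replicate numbers did not pair the samples (same-number correlations of -0.28, 0.01, 0.17, -0.09 and -0.17). With the replicate block 2011 genes were called.

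The results that changed sign were those of genes that did not pass, and the cause was not tested. With 1 library left out, Lep ranged from -0.041 to 0.63, Retn from -0.20 to 0.13, Cfd from -0.38 to 0.094, Dgat2 from -0.42 to 0.26, Pnpla2 from -0.36 to 0.070, Lipe from -0.00027 to 0.33 and Dbp from -0.034 to 0.25. With total-read scaling Lep was -0.092, Lpl -0.080, Lipe -0.18 and Dbp -0.23. With length and GC trends removed Retn was 0.22, Cfd 0.29, Dgat2 0.17 and Pnpla2 0.077. Without the 5 libraries Lep was -0.24 and Lpl -0.0064. Without controls 2, 4 and 5 Lpl was -0.20 and Lipe -0.46. With the uterus covariates Lipe was -0.36, Slc2a4 -0.095 and Sprr2f 1.57. Lpl was -0.038 with quantile normalization.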
